A study of Mus musculus with 10 samples.

Results

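Mature neutrophils that leave the bone marrow and circulate carry a set of late transcripts, many of them for secreted proteins that hold proteases in check or are stored in granules. The 8 genes described here, Retnlg, Stfa2l1, Wfdc17, Wfdc21, Slpi, Lrg1, Asprv1 and Mxd1, were taken by their symbols from the 28185 genes of the deposited table, and all 8 passed the filter on low values. They were followed across Ly6G+ cells of the infarcted heart and of blood, in mice with and without mesenchymal stromal cells (MSC).

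Every mouse was a male C57Bl/6J animal of 12 to 16 weeks with a myocardial infarction (MI), made by ligating the left coronary artery, and cells were taken at day 3. The labels put the libraries in 4 groups, namely MI (n = 3) and MI + MSC (n = 3) from heart tissue, and Blood (n = 2) and Blood + MSC (n = 2) from blood drawn by cardiac puncture. The MSC came from the bone marrow of mice of the same strain and were injected under the skin, away from the heart. Blood groups were infarcted too, so no library came from an uninjured mouse, and the labels tie no heart library to a blood library and name no animal, so p-values measure the spread between these libraries alone.

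Neutrophils are made in the marrow in steps. Early precursors make the primary granule proteases, later precursors the secondary granule proteins, and the last steps before release bring the chemokine receptors, protease inhibitors and small secreted proteins of the mature cell. Neutrophils that enter injured tissue change what they express.

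Depth differed between libraries. The deposited values are normalized counts, from which whole reads were recovered, between 148594 in MI 13 and 8602711 in Blood + MSC 24. A single read was worth 8.40 normalized counts in MI 13 and 7.07 in Blood 21, and between 0.168 and 2.30 in the other 8 libraries. Markers of other cells were present beside the neutrophil markers. Summed cardiomyocyte markers ranged from 2838 to 22325 normalized counts in heart libraries and from 10.4 to 63.6 in blood libraries, summed platelet markers were 22722 in Blood 21 against 555 to 1024 in the other 3 blood libraries, with all 4 platelet markers in the table detected there. Neutrophil markers (S100a8, S100a9, Ly6g, Csf3r and Cxcr2) summed to between 2194 and 12148 in heart and between 13128 and 39029 in blood, and Ly6g itself, the gene of the selected antigen, had 4.75 to 26.9 normalized counts in heart and 41.2 to 645 in blood. The part of these cell mixtures in the results below was not tested, and in bulk RNA fewer neutrophils and less RNA per neutrophil cannot be told apart.

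The promoters of 7 members were available from RefSeq on build GRCm38.p6, each as 250 bases before and 50 bases after an annotated transcript start. They were searched on both strands for TTGCNNAA (C/EBP, a factor family of the granulocyte lineage), AGGAAGT (PU.1, a myeloid factor), TTCNNNGAA (STAT factors) and TATAAA (the TATA box). Of 32851 such promoters in the table, 10.8% held the first, 9.35% the second, 8.3% the third and 13.6% the fourth. Matches were found in 4 of the 7, and no match overlapped another. The share of all promoters with any of these motifs was not computed, so 4 of 7 has no background beside it. The promoters of Retnlg and Lrg1 are shown because they carry such matches, and those of Asprv1 and Mxd1 because these genes lie next to each other and had like profiles. Capitals mark the matches.
Retnlg, chr16:48872358-48872657, plus strand: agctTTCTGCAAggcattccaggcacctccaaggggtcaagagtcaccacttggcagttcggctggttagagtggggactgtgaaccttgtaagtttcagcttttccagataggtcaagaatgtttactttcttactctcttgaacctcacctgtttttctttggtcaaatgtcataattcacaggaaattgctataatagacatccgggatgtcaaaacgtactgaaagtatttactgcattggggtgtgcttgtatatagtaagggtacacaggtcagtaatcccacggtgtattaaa
Lrg1, chr17:56121897-56122196, minus strand: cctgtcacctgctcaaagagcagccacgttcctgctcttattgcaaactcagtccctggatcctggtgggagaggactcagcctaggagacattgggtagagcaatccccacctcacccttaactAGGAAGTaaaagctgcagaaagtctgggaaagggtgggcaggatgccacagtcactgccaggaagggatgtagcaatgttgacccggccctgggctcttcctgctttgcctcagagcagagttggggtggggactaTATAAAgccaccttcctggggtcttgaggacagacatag
Asprv1, chr6:86627924-86628223, plus strand: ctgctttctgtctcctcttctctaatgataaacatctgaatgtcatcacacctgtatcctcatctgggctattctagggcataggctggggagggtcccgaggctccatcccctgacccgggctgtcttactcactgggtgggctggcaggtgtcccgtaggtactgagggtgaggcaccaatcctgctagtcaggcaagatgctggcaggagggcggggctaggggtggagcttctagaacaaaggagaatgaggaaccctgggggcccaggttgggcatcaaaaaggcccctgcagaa
Mxd1, chr6:86669110-86669409, minus strand: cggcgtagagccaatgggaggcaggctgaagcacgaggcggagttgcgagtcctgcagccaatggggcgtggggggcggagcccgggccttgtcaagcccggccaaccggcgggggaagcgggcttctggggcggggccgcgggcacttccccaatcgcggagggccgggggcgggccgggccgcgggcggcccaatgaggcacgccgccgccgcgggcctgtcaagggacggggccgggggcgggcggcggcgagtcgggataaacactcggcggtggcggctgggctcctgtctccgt

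In Retnlg the C/EBP match lay on the minus strand at position -246 from the start, and Slpi held another on the minus strand at -241. Lrg1 held a PU.1 match at -125 and TATAAA at position 12 after the start, and Wfdc17 held TATAAA from -3. Base composition set Mxd1 apart, with 76.7% G or C and 39 CpG pairs in its 300 bases, whereas the other 6 had no more than 57.0% and at most 4 CpG pairs. Over all promoters in the table the medians were 52.7% and 7 CpG pairs. A match is a string of letters and not a shown binding site.

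All 8 genes were lower in Ly6G+ cells of the infarcted heart than in those of blood. The difference was largest for Wfdc21 and Retnlg, intermediate for Lrg1, Slpi, Stfa2l1 and Wfdc17, and smallest for Asprv1 and Mxd1. None of the 8 passed the test between mice with and without MSC, in either tissue. Relative to the summed neutrophil markers of the same library, the 8 genes did not move alike, and Mxd1 and Asprv1 were then at least as high in heart as in blood by their medians.

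**Figure D1:**
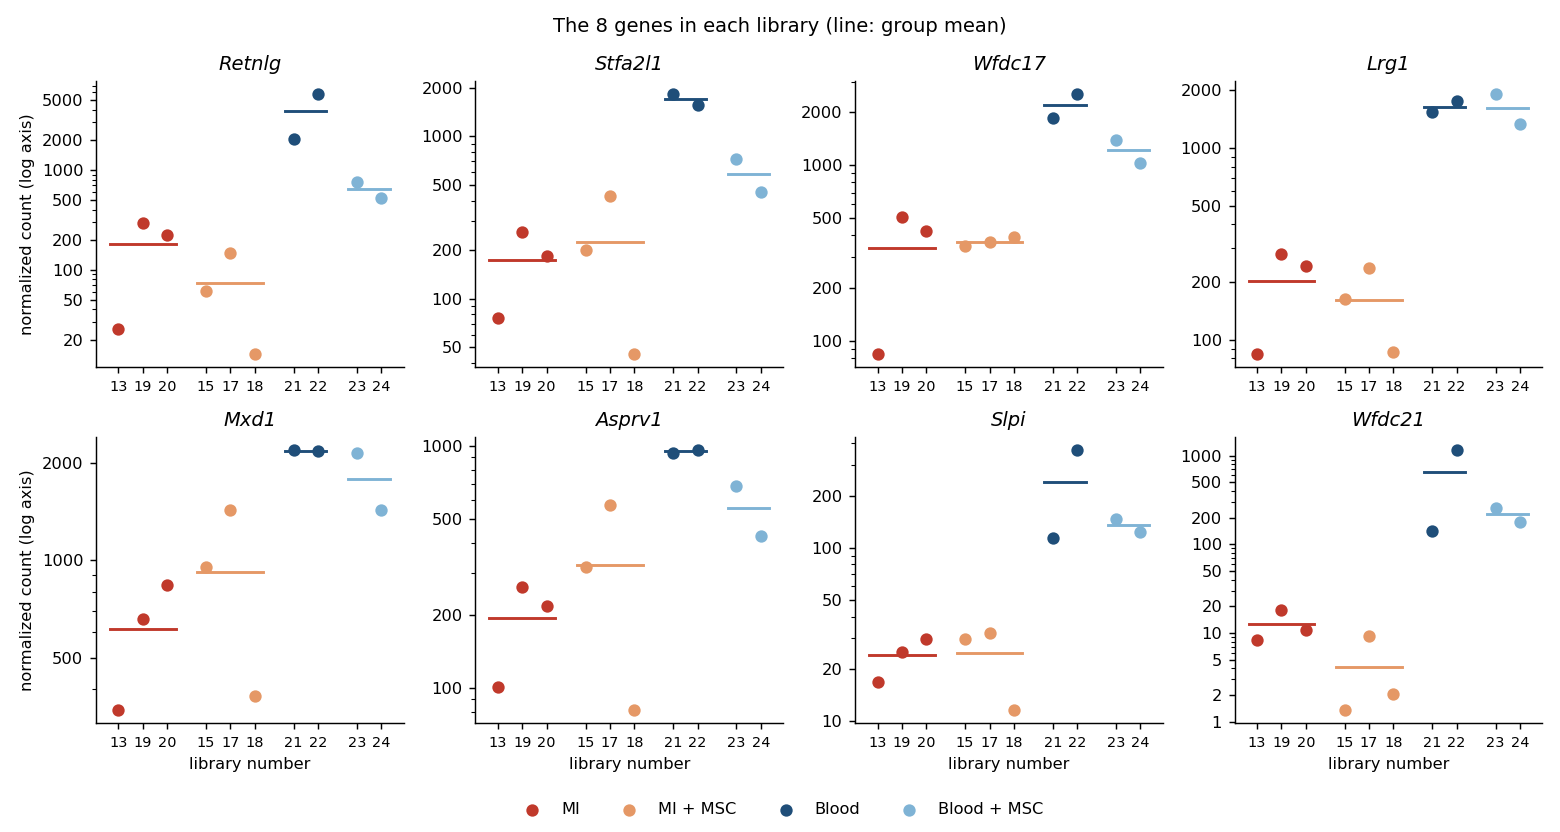
Normalized counts (log axis) of the 8 genes in each of the 10 libraries, named by library number on the horizontal axis, with points coloured by group and a line at the group mean. The 4 blood libraries lie above the 6 heart libraries for 6 genes, while Asprv1 and Mxd1 overlap between MI + MSC 17 and Blood + MSC 24.

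Retnlg encodes resistin-like gamma, a secreted protein of the resistin family made by marrow and blood granulocytes. It lies at chr16:48692547-48694862 on the plus strand (GRCm39), and no annotated gene overlaps it. Retnlg stood at 25.2, 296 and 222 normalized counts in the MI libraries, at 60.8, 147 and 14.2 in the MI + MSC libraries, at 2042 and 5772 in Blood, and at 765 and 522 in Blood + MSC. Every blood library stood above every heart library, and the Blood libraries stood above both Blood + MSC libraries. Against blood, Retnlg was lower in heart with a log2 fold change of -4.19 (SE 0.73, 95% interval -5.78 to -2.60, limma Benjamini-Hochberg adjusted p = 0.00105), or 18.3-fold. Of the 8 genes, Retnlg also spread widely within heart, where the highest library had 20.8 times the value of the lowest. MI 13, the shallowest library, held only 3 Retnlg reads.

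Of its family, Retnla and Retn passed the filter and were lower in heart too, with log2 fold changes of -2.91 (SE 0.52, limma adjusted p = 0.00131) and -1.93 (SE 0.46, limma adjusted p = 0.00642). Retn reached at most 36.25 and Retnla at most 50.03 normalized counts in any library, and Retnlb was under the filter. Retnlg had by far the most counts of this family, with a mean of 987 over the 10 libraries.

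Stfa2l1 belongs to the stefin A cluster, a tandem group of small intracellular inhibitors of cysteine cathepsins. It lies at chr16:35977176-35982332 on the plus strand. Stefin A genes are near-identical copies, so reads may have been split between them or lost, and their single values are uncertain. Stfa2l1 stood at 75.6, 259 and 183 normalized counts in the MI libraries, at 199, 429 and 45.4 in the MI + MSC libraries, at 1823 and 1558 in Blood, and at 728 and 452 in Blood + MSC. The tissues did not overlap, although MI + MSC 17, the highest heart library, came close to Blood + MSC 24, the lowest blood library. Stfa2l1 was lower in heart with a log2 fold change of -2.64 (SE 0.54, 95% interval -3.82 to -1.46, limma adjusted p = 0.00274).

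Of 7 stefin genes that passed the filter, 5 were called lower in heart, 1 higher and 1 was not called. The shares over all tested genes were 18.1% lower and 25.3% higher. Stfa1 (-3.57, SE 0.55), Cstdc4 (-3.67, SE 0.71), Stfa2 (-2.72, SE 0.61) and Stfa3 (-2.09, SE 0.71) were the other 4 called lower, with limma adjusted p between 0.000500 and 0.0330, and Cstdc5 had a log2 fold change of -2.49 (limma adjusted p = 0.0764). Cstb, the gene of stefin B, which most cells express, was the one called higher, with a log2 fold change of 0.89 (SE 0.25, limma adjusted p = 0.0140). The median over the 7 was -2.64, and that over all 11549 tested genes was 0.12. Cstdc6 was under the filter, and the other 2 listed stefin genes were not analysed here.

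Wfdc17, Wfdc21 and Slpi share the whey acidic protein (WAP) four-disulfide core, a small fold found in secreted protease inhibitors and antimicrobial proteins. Of the listed WAP genes these 3 alone passed the filter, 7 others were in the table at means of at most 4.86 normalized counts, and the rest were not analysed here. Wfdc17 (chr11:83594817-83597095) and Wfdc21 (chr11:83637766-83643472) lie 40670 bases apart on the same strand, with Wfdc18 between them, which was one of the 7. Among the 11548 other tested genes, Wfdc21 ranked 7559 in closeness to Wfdc17, and Wfdc17 ranked 196 in closeness to Wfdc21. Closeness here is the root mean square difference of log2(value + 2), centred on the mean of each gene, over the 10 libraries.

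Wfdc17, which is known as a protein of activated macrophages and microglia as well, stood at 84.0, 510.4 and 425 normalized counts in the MI libraries, at 345, 367 and 391 in the MI + MSC libraries, at 1858 and 2548 in Blood, and at 1396 and 1037 in Blood + MSC. Heart and blood did not overlap, and apart from MI 13 the heart libraries lay within a narrow range. Wfdc17 was lower in heart with a log2 fold change of -2.37 (SE 0.44, 95% interval -3.33 to -1.41, limma adjusted p = 0.00155). Macrophage markers (Adgre1, Csf1r, C1qa, C1qb and Mrc1) summed to between 1504 and 6560 normalized counts in heart and between 4211 and 5652 in blood. All 5 were detected in each library. None of the 5 was called by limma between heart and blood, with all 5 log2 fold changes negative and a median of -0.32. EdgeR called 1 of the 5 lower in heart, where it called 2962 of 11549 tested genes lower. The macrophage marker sum was lowest in MI 13 and highest in MI + MSC 18, the heart library where Wfdc17 took the largest share of the 8 genes. By level the order differed. Wfdc17 was highest in heart in MI 19, with 510.4 at a macrophage marker sum of 3835, and had 391 in MI + MSC 18. The part of macrophages in the Wfdc17 values was not tested.

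Wfdc21 had the largest difference of the 8 between heart and blood. It stood at 8.40, 18.3 and 10.8 normalized counts in the MI libraries, at 1.35, 9.18 and 2.03 in the MI + MSC libraries, at 141 and 1163 in Blood, and at 258 and 179 in Blood + MSC. The heart values rested on 1, 19 and 21 reads in MI and on 2, 4 and 3 reads in MI + MSC, so single heart libraries were at or near the limit of detection, taken as 3 reads. The limma log2 fold change was -5.11 (SE 0.55, 95% interval -6.31 to -3.92, adjusted p = 5.23e-05), and it moved between -4.31 and -5.34 when the pseudocount was 8 or 1 in place of 2. Pooled over libraries and scaled by depth, 50 reads in heart against 3854 in blood gave a level 43.8 times higher in blood, with an exact 95% interval of 33.1 to 59.1 that covers counting error only. Of the 8 genes, Wfdc21 also differed most between the Blood libraries, with 8.23 times more in Blood 22 than in Blood 21.

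Slpi encodes the secretory leukocyte protease inhibitor, which holds neutrophil elastase, cathepsin G and chymase. It lies at chr2:164195990-164231015 on the minus strand, where the annotation overlaps it with Matn4 and Mir7678 on the same strand, so reads at the shared ends may have been left out or assigned to either. Slpi stood at 16.8, 25.0 and 29.9 normalized counts in the MI libraries, at 29.7, 32.1 and 11.5 in the MI + MSC libraries, at 113 and 367 in Blood, and at 147 and 123 in Blood + MSC. The lowest blood library had more than 3 times the value of the highest heart library, and heart varied less for Slpi than for any of the other 7 genes, with 2.79 times between its lowest and highest library. These values rested on few reads, with 2 in MI 13, under the limit of 3, 14 in MI + MSC 17, 17 in MI + MSC 18 and 16 in Blood 21. The small spread is therefore uncertain. Slpi was lower in heart with a log2 fold change of -2.75 (SE 0.37, 95% interval -3.57 to -1.94, limma adjusted p = 0.000228). The proteases it holds were near absent as transcripts, with means over the 10 libraries of 1.40 normalized counts for Elane and 1.80 for Cma1, and Ctsg was not analysed here.

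Lrg1 encodes leucine-rich alpha-2-glycoprotein, a secreted protein that neutrophils store in granules and that acts on TGF-beta signalling in endothelium through endoglin. It lies at chr17:56426283-56429001 on the minus strand, and a non-coding gene, Gm56918, overlaps it on the other strand, which stranded counting keeps apart. Lrg1 stood at 84.0, 279.7 and 241 normalized counts in the MI libraries, at 163, 236 and 86.8 in the MI + MSC libraries, at 1540.2 and 1749.7 in Blood, and at 1913 and 1338 in Blood + MSC. All 4 blood libraries lay within 1.43 times of each other, and all lay above heart. Lrg1 was lower in heart with a log2 fold change of -3.29 (SE 0.37, 95% interval -4.11 to -2.47, limma adjusted p = 7.58e-05).

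Of 5 listed partners of LRG1 in TGF-beta signalling, all tested, 4 were called higher in heart and none lower, where 25.3% of the 11549 tested genes were called higher, among them the receptor gene Tgfbr1 with a log2 fold change of 1.01 (SE 0.29, limma adjusted p = 0.0167) and the ligand gene Tgfb1 with 0.69 (SE 0.23, limma adjusted p = 0.0319). Tgfbr2 had 0.14 (limma adjusted p = 0.683). The other 2, chosen for naming after their values were seen, were Eng, the gene of endoglin, with 2.44 (SE 0.23, limma adjusted p = 2.59e-05) and Acvrl1 with 1.27 (SE 0.42, limma adjusted p = 0.0309). Of 5 endothelial markers, 4 were called higher in heart as well, where they summed to between 356 and 1549 normalized counts, against 68.0 to 118 in 3 blood libraries and 1505 in Blood 21, where Vwf and Pecam1, which platelets also carry, made up nearly all of it. The part of endothelial cells in the Eng and Acvrl1 values was not tested.

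Asprv1 encodes a retroviral-like aspartic protease known for processing filaggrin in the epidermis, and Mxd1 encodes a partner of MAX that represses genes which MYC activates and is known to rise as granulocytes stop dividing. They are neighbours on chromosome 6, Asprv1 at chr6:86595254-86606692 on the plus strand and Mxd1 at chr6:86624024-86646218 on the minus strand, 17331 bases apart with no coding gene between them. Asprv1 stood at 101, 262 and 219.8 normalized counts in the MI libraries, at 316, 572 and 81.4 in the MI + MSC libraries, at 939.7 and 965 in Blood, and at 687 and 424 in Blood + MSC. Mxd1 stood at 345, 661 and 837 normalized counts in the MI libraries, at 951, 1430.3 and 379.6 in the MI + MSC libraries, at 2197 and 2173 in Blood, and at 2149 and 1427 in Blood + MSC. For both, MI + MSC 17 was the highest heart library and lay above Blood + MSC 24, the lowest blood library, so that heart and blood overlapped.

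Asprv1 was lower in heart with a log2 fold change of -1.76 (SE 0.48, 95% interval -2.80 to -0.72, limma adjusted p = 0.0121). Mxd1 was lower with -1.52 (SE 0.40, 95% interval -2.39 to -0.65, limma adjusted p = 0.0102). Both calls were lost when Blood + MSC 23 was left out. That left a single Blood + MSC library, and fewer of all tested genes were called lower as well. Over the 10 libraries Mxd1 was the fourth most like Asprv1 of 11548 other tested genes, with a root mean square difference of 0.31, and Asprv1 ranked 49 from the side of Mxd1. Gm44292, which overlaps Mxd1 on the same strand, ranked 2 for Mxd1, and its reads cannot be told apart from those of Mxd1 where the genes overlap.

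Of the network of MYC, MAX and MXD genes, 11 were tested, of which 2 were called lower in heart, 1 higher, and 8 were not called. Of all tested genes 18.1% were called lower and 25.3% higher, so these counts do not set the network apart. Besides Mxd1, Max was lower with a log2 fold change of -1.49 (SE 0.24, limma adjusted p = 0.000669), while Myc, named after its values were seen, was higher with 1.70 (SE 0.54, limma adjusted p = 0.0250) at no more than 34.5 normalized counts in any library. Mga, a larger MAX partner, had -0.05 (SE 0.23, limma adjusted p = 0.875). Mxd1 was the most abundant gene of the network, with a mean of 1255 normalized counts over the 10 libraries against 292 for Mga and 288 for Max.

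**Figure D2:**
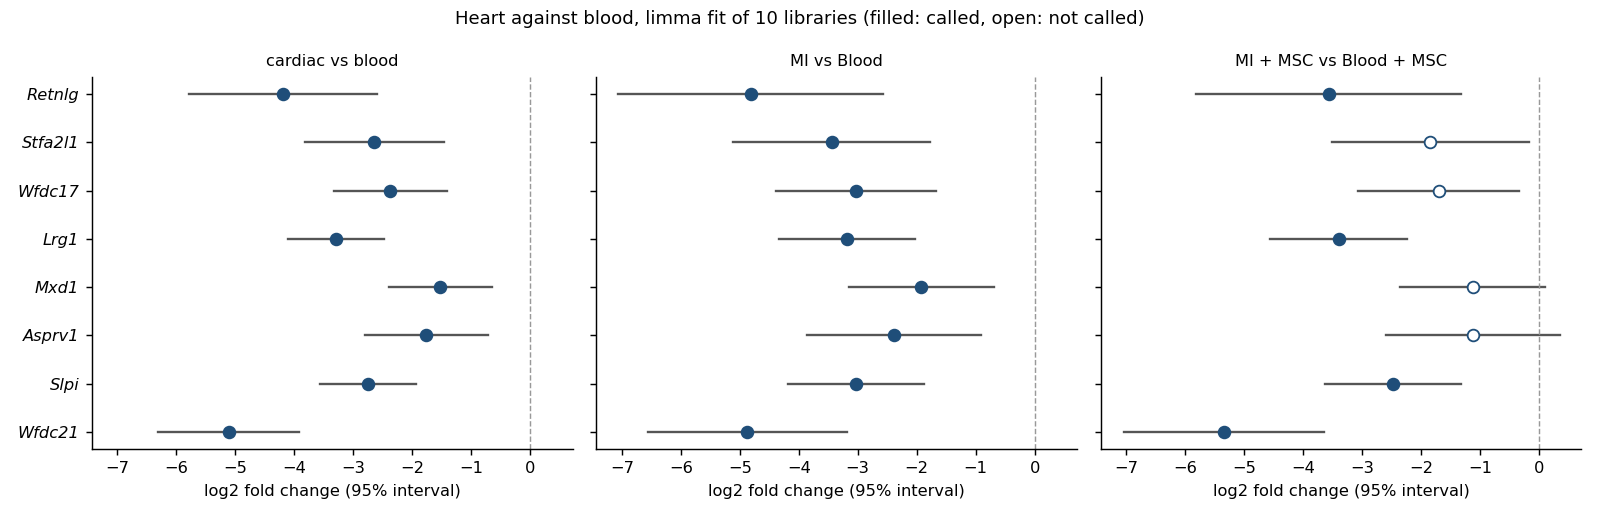
Log2 fold changes of the 8 genes in heart against blood over all libraries, without MSC and with MSC, with 95% intervals from limma, filled points for called genes and open points for others. All 24 points lie below 0, and in MI + MSC against Blood + MSC the 4 open points are Stfa2l1, Wfdc17, Mxd1 and Asprv1.

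Over both conditions, 8 of 8 genes were called lower in heart (limma adjusted p under 0.05 and a log2 fold change of at least 0.5 in size), where 18.1% of the 11549 tested genes were. The median log2 fold change was -2.70 for the 8 and 0.12 for all tested genes. For 6 of the 8, every heart library lay below every blood library, against 14.0% of tested genes. Scaling by library size in place of the deposited size factors moved the median of all genes from 0.12 to 0.45 and the calls from 2918 higher and 2090 lower to 4114 higher and 1377 lower, TMM scaling gave -0.03 with 2499 higher and 2437 lower, and all 8 genes stayed called lower under both. On the recovered reads edgeR called 3093 genes higher and 2962 lower, the 8 genes among the lower ones.

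Without MSC, 8 of 8 genes were called lower in MI than in Blood, against 13.5% of tested genes. The log2 fold changes ran from -4.87 for Wfdc21 and -4.81 for Retnlg to -2.39 for Asprv1 and -1.92 for Mxd1. No heart library overlapped a blood library for any of the 8, which was true in that direction of 23.6% of tested genes. Asprv1 and Mxd1 lost the call when Blood 21, Blood 22 or MI 13 was left out. Without Blood 21 or Blood 22 that group is a single library, and the spread comes from the other groups.

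With MSC, 4 of 8 genes were called lower in MI + MSC than in Blood + MSC, against 5.85% of tested genes. These were Wfdc21 (-5.35, SE 0.77, limma adjusted p = 0.00157), Retnlg (-3.57, SE 1.03, limma adjusted p = 0.0401), Lrg1 (-3.40, SE 0.53, limma adjusted p = 0.00238) and Slpi (-2.48, SE 0.53, limma adjusted p = 0.0112). Stfa2l1 had -1.85, Wfdc17 -1.71, Asprv1 -1.13 and Mxd1 -1.12, with limma adjusted p from 0.0869 to 0.277. Groups did not overlap for 6 of the 8, in a comparison where 29.7% of tested genes had every heart library lower. The calls of Retnlg and Slpi did not hold without Blood + MSC 23 or Blood + MSC 24, while Wfdc21 and Lrg1 stayed called. Blood was then a single library assumed to vary like the other groups, and far fewer of all tested genes were called lower too. With 1 library left out at a time, Retnlg ran from -4.31 to -2.71 and Slpi from -2.72 to -2.05. Retnlg also lost its call without MI + MSC 15 or MI + MSC 18, and Wfdc17 was called by edgeR (adjusted p = 0.0177) and by DESeq2 (adjusted p = 0.00229). The 2 tissue comparisons use different libraries, and the difference between them is the interaction given further on, which called none of the 8.

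Levels can be compared between genes per length of transcript, as recovered reads scaled to exon length and library depth (RPKM), with exon lengths from the annotation. In Blood, Retnlg had 1885 ± 1261 RPKM (SD, n = 2) and ranked 9 of 27906 genes, Stfa2l1 had 1329 ± 158 and ranked 16, and Wfdc17 had 694 ± 148 and ranked 37. These were followed by Lrg1 with 477 ± 39.1, Wfdc21 with 241 ± 266, Asprv1 with 216 ± 2.39, Mxd1 with 156 ± 2.51 and Slpi with 106 ± 78.8. The ranges of Retnlg and Stfa2l1 overlapped, Wfdc17 and Lrg1 stood apart from their neighbours, and the wide range of Wfdc21 held all values of Asprv1 and Mxd1, which did not overlap each other, and overlapped that of Slpi.

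In MI the order by RPKM was different. Stfa2l1 had 191 ± 95.8 RPKM (SD, n = 3), Wfdc17 150.4 ± 96.8, Retnlg 123 ± 93.1, Lrg1 82.6 ± 39.9, Mxd1 62.3 ± 23.2, Asprv1 62.3 ± 24.5, Slpi 15.1 ± 3.57 and Wfdc21 6.60 ± 2.47. The first 6 overlapped with their neighbours in this order, and Slpi and Wfdc21 stood below them. Wfdc21 went from rank 136 in Blood to rank 6157 in MI, and Mxd1 from rank 235 to rank 485. In MI + MSC, Stfa2l1 again led with 223 ± 187 RPKM and Wfdc17 followed with 153 ± 20.02, while Retnlg was at 45.3 ± 40.1. In Blood + MSC, Lrg1 led with 575 ± 87.9 RPKM and ranked 27, next to Stfa2l1 with 562 ± 133, and their ranges overlapped.

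The neutrophil markers were themselves lower in heart, all 5 of them called by limma with a median log2 fold change of -2.46, so the 8 genes were also set against their sum in each library, in normalized counts per 1000 marker counts. This ratio was chosen after the values had been seen and is given without a test. For each of the 8 genes heart and blood then overlapped. Wfdc21 ranged from 0.196 to 3.83 in heart and from 3.62 to 34.9 in blood, with a median in heart 0.111 times that in blood. The Wfdc21 overlap rested on MI 13 alone, whose value of 3.83 came from 1 read, under the limit of 3 reads. All other heart libraries lay below every blood library for Wfdc21 on this scale. Retnlg ranged from 5.94 to 45.9 in heart and from 39.7 to 173 in blood (0.249 times).

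The other 6 were closer. The ratio of medians, heart to blood, was 0.483 for Lrg1, 0.522 for Slpi, 0.804 for Stfa2l1, 0.818 for Wfdc17, 1.49 for Asprv1 and 1.70 for Mxd1. For Lrg1 this pooled unlike groups, with 38.3 to 49.8 in MI, 39.5 to 52.4 in Blood, 19.5 to 36.2 in MI + MSC and 102 to 106 in Blood + MSC. Wfdc21 had 2.23 to 3.83 in MI and 0.196 to 0.848 in MI + MSC, on few reads. MI and MI + MSC overlapped for the remaining 6 genes, and the share over all genes was not computed on this scale. Mxd1 had 97.8 to 173 in heart and 56.3 to 119 in blood, and Asprv1 33.9 to 47.1 in heart and 24.1 to 37.9 in blood. These blood ranges pooled unlike groups too. Mxd1 had 56.3 to 65.1 in Blood and 109 to 119 in Blood + MSC, against 97.8 to 173 in MI and 118 to 158 in MI + MSC. Asprv1 had 24.1 to 28.9 in Blood and 32.3 to 37.9 in Blood + MSC. Blood and Blood + MSC stood apart for Retnlg, Wfdc17 and Stfa2l1 as well, and overlapped for Wfdc21 and Slpi. On this scale Wfdc21 and Retnlg were lowest in heart relative to blood, and the neighbours Asprv1 and Mxd1 highest. The scale depends on the chosen markers, and S100a8 and S100a9 made up the larger part of their sum in 8 of the 10 libraries.

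**Figure D3:**
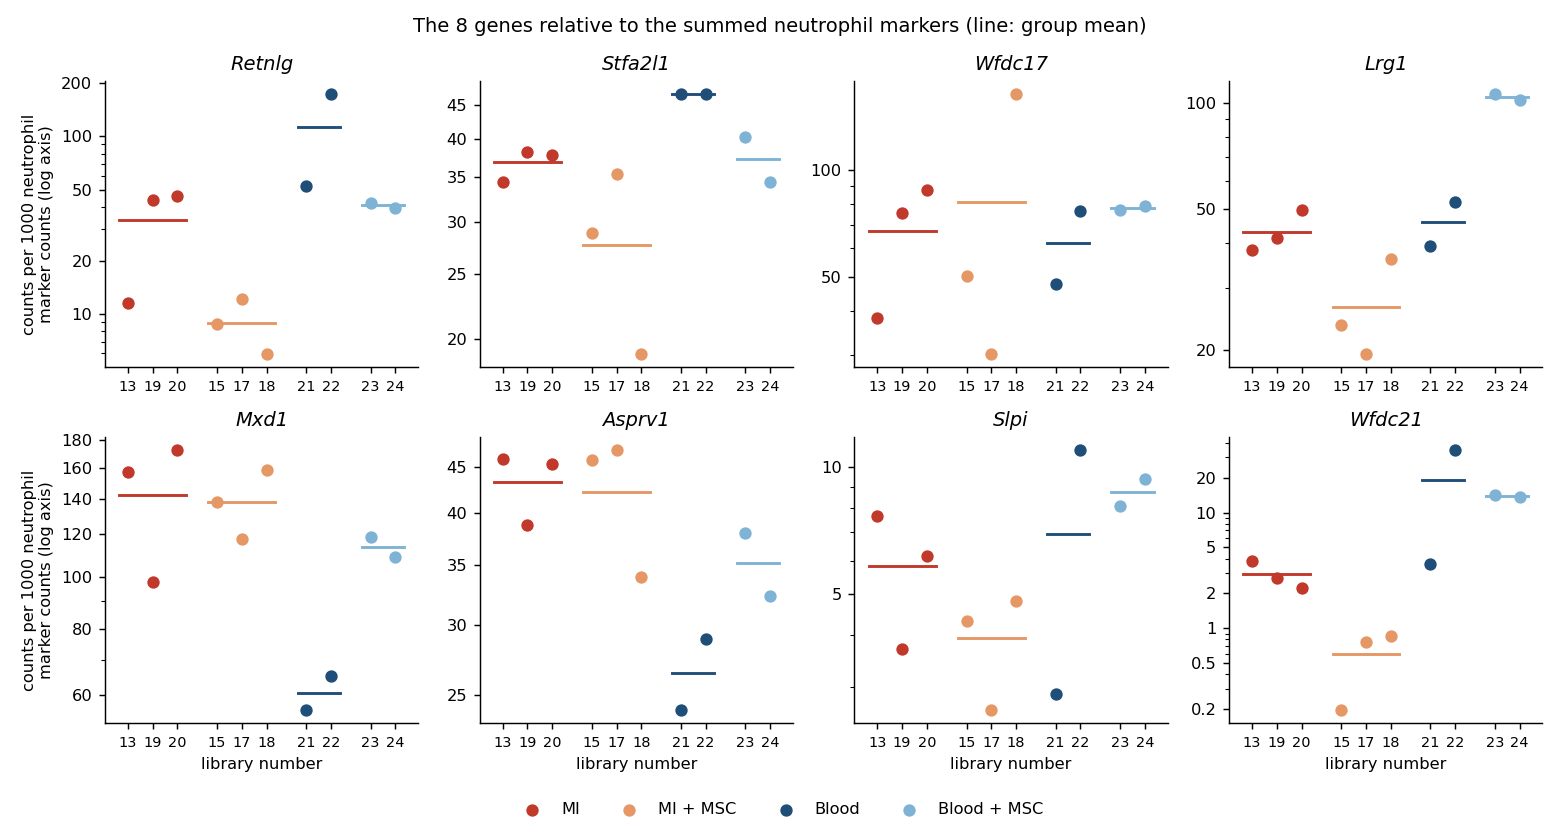
Normalized counts of the 8 genes per 1000 summed neutrophil marker counts (log axis) in each library, with points coloured by group and a line at the group mean. Wfdc21 lies between 0.196 and 3.83 in the 6 heart libraries and above 13 in 3 of 4 blood libraries, whereas Mxd1 lies between 56.3 and 119 in blood and between 97.8 and 173 in heart.

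Summed over the 8 genes, heart libraries had 739.6 to 3223 normalized counts and blood libraries 5502 to 16295.5. The make-up of that sum differed between groups. Mxd1 took between 28.6% and 46.6% of it in heart and between 13.3% and 26.7% in blood. Retnlg took 19.2% and 35.4% in Blood, 9.51% and 9.48% in Blood + MSC, 3.41% to 12.8% in MI and 1.41% to 4.56% in MI + MSC. Lrg1 took 23.8% and 24.3% in Blood + MSC against 14.5% and 10.7% in Blood. Wfdc17 took 38.6% in MI + MSC 18 and between 11.4% and 22.1% in the other 9 libraries. These shares were compared after the values had been seen, they depend on each other because they sum to the whole, and no test was run on them.

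**Figure D4:**
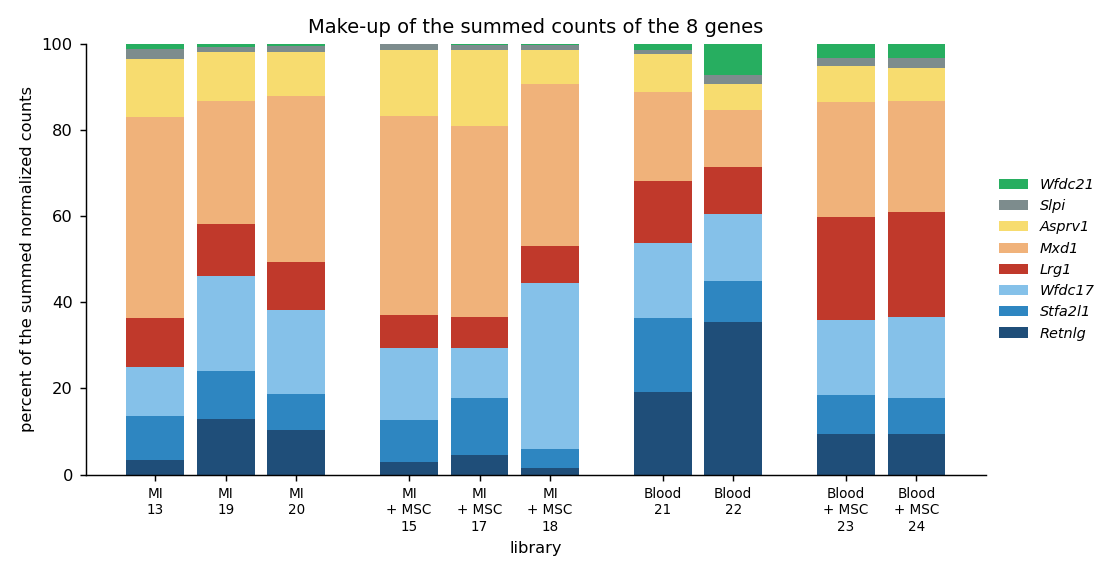
Share of each of the 8 genes in their summed normalized counts (percent), as 1 stacked bar per library, with libraries named by group and number. Mxd1 takes 28.6% to 46.6% in the heart libraries and 13.3% to 26.7% in the blood libraries, and Retnlg its largest share, 35.4%, in Blood 22.

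Within the heart, MSC made no difference that passed the test for any of the 8 genes. For all 8, MI + MSC libraries overlapped with MI libraries in normalized counts. Of tested genes 9.6% had every MI + MSC library lower and 7.05% every one higher, so most tested genes overlapped as well. Log2 fold changes against MI were -1.39 for Wfdc21 (95% interval -2.90 to 0.13, limma adjusted p = 0.635), -1.19 for Retnlg (-3.20 to 0.82, limma adjusted p = 0.702), 0.48 for Mxd1 (-0.62 to 1.58), 0.47 for Wfdc17 (-0.74 to 1.69) and 0.45 for Asprv1 (-0.87 to 1.77). Lrg1 had -0.25 (-1.29 to 0.78), and Slpi with -0.05 and Stfa2l1 with 0.04 changed sign under another scaling. Each of the 8 intervals held a 2-fold change in at least 1 direction, and that of Stfa2l1 (-1.45 to 1.54) held it in both.

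Limma called 0 of 8 genes and 0 of 11549 (0.0%) in the heart, with 0 of the 8 and 925 of all genes at an unadjusted p under 0.05. On the recovered reads edgeR called 0 genes, with Wfdc21 at an unadjusted p under 0.05, and DESeq2 called 21 higher and 55 lower but none of the 8. By DESeq2 1 of the 8 and 938 of all genes had an unadjusted p under 0.05. Wfdc21 rested on 9 reads in MI + MSC against 41 in MI, a level 0.201 times that of MI after scaling by depth, with an exact 95% interval of 0.0858 to 0.420 for counting error only. MI 13 and MI + MSC 18 had the lowest neutrophil marker sums (2194 and 2398). MI 13 was the lowest MI library for 8 of the 8 genes and MI + MSC 18 the lowest MI + MSC library for 6.

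In blood, 5 of the 8 genes had every Blood + MSC library below every Blood library, namely Retnlg, Wfdc17, Stfa2l1, Asprv1 and Mxd1, and 15.4% of tested genes did. None passed the test. The neutrophil markers summed to 39029 and 33368 normalized counts without MSC and to 18102 and 13128 with MSC. Their 5 log2 fold changes were all negative and none was called, with a median of -1.87 (Ly6g -2.83, Csf3r -0.19), while the median of the 8 genes was -0.84, and the part of neutrophil content in the values of the 8 was not tested. Log2 fold changes against Blood were -2.44 for Retnlg (95% interval -4.90 to 0.02, limma adjusted p = 0.672), -1.55 for Stfa2l1 (-3.38 to 0.28, limma adjusted p = 0.684), -0.91 for Wfdc21, -0.85 for Wfdc17, -0.82 for Asprv1, -0.60 for Slpi, -0.32 for Mxd1 and -0.04 for Lrg1, whose sign turned under other scalings. Limma called 0 of 11549 genes (0.0%), with 0 of the 8 and 848 of all at an unadjusted p under 0.05. EdgeR called 0 genes, with Retnlg and Wfdc21 at an unadjusted p under 0.05, and DESeq2 called 4 higher and 175 lower, none of them among the 8. By DESeq2 3 of the 8 and 751 of all genes had an unadjusted p under 0.05.

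The Blood libraries differed from each other. Blood 22 had 2.83 times the Retnlg, 3.25 times the Slpi and 8.23 times the Wfdc21 of Blood 21, while Mxd1, Asprv1, Lrg1, Stfa2l1 and Wfdc17 differed by at most 1.37 times. Wfdc21 and Slpi changed sign when Blood 22 was left out and Blood + MSC was set against Blood 21 alone, to 0.60 and 0.25, and Retnlg went from -2.44 to -1.69. Ngp and Lcn2, from the list of precursor genes and named here after their values were seen, were also higher in Blood 22, whereas Cebpe (28.3 and 29.9) and Mki67 (35.3 and 35.1) from that list were about level and Prtn3 (14.1 and 9.10) and Gfi1 (21.2 and 3.25) lower. Ngp had 84.8 normalized counts in Blood 21 and 2022 in Blood 22, while the Blood + MSC libraries had 303 and 45.6. Lcn2 had 593 and 2171 in the same Blood libraries and 455 and 361 with MSC. Summed erythroid markers were 480.4 in Blood 21, 9442 in Blood 22, 2570.0 and 5420.3 with MSC, and 48.7 to 286 in heart, with all 5 detected in 3 of the 4 blood libraries and Alas2 at 0 in Blood 21. Their part in the Blood values was not tested.

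**Figure D5:**
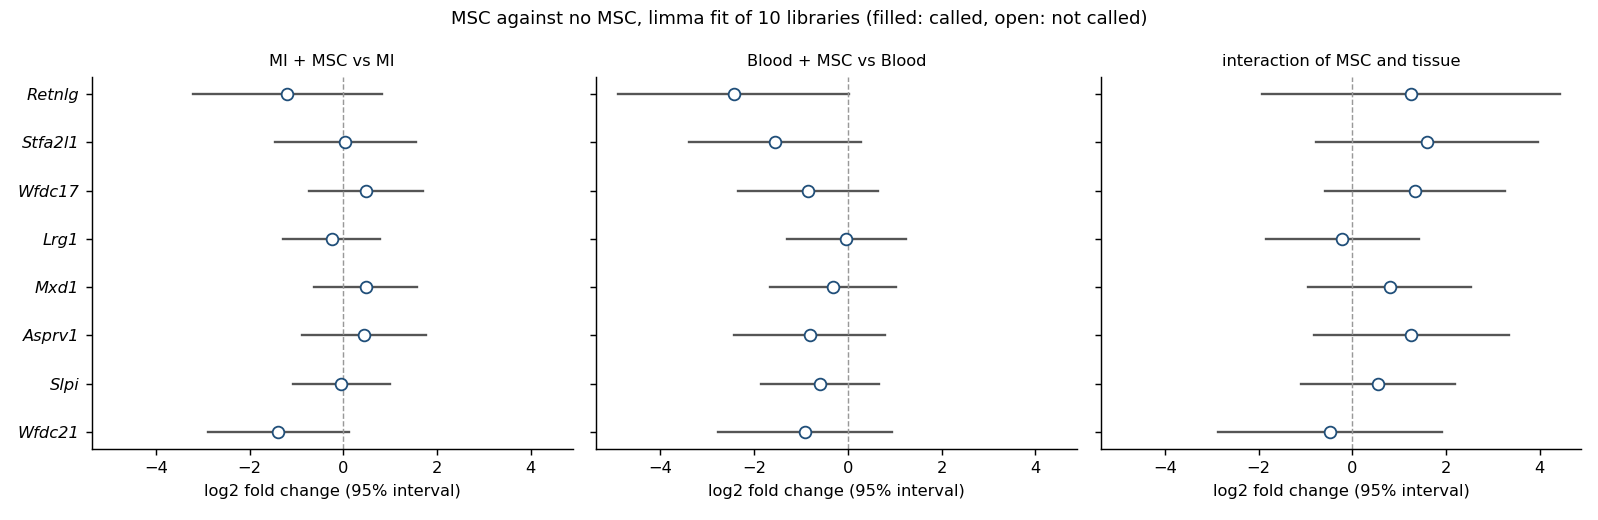
Log2 fold changes of the 8 genes with MSC against no MSC in heart and in blood, and their difference (the interaction), with 95% intervals from limma and open points for genes that were not called. All 24 intervals include 0, and Retnlg in blood comes closest to leaving it with an upper bound of 0.02.

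The interaction, which tests whether the MSC difference in heart differed from that in blood, called none of the 8 genes and none of 11549 (0.0%), with 0 of the 8 and 838 of all at an unadjusted p under 0.05 in limma. It was 1.596 for Stfa2l1 (95% interval -0.77 to 3.96), 1.33 for Wfdc17, 1.26 for Asprv1, 1.24 for Retnlg, 0.80 for Mxd1, 0.55 for Slpi, -0.22 for Lrg1 and -0.47 for Wfdc21, the last of which turned positive with a pseudocount of 8, with limma adjusted p from 0.639 to 0.922. EdgeR called 0 genes, and DESeq2 called 15 higher and 3 lower, again none of the 8. At an unadjusted p under 0.05 edgeR had 0 of the 8 and 815 of all genes, and DESeq2 1 of the 8 and 789 of all.

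A list of other late-stage neutrophil genes held 25, and all 25 were tested. In heart against blood 21 were called lower, none higher and 4 were not called, where 18.1% of tested genes were called lower, and their median log2 fold change was -2.25. In MI against Blood 22 of the 25 were called lower, where 13.5% of tested genes were. In MI + MSC against Blood + MSC 5 were called lower, with a median of -1.68, where 5.85% of tested genes were. By edgeR the counts were 21 and 11, where edgeR called 2060 and 1801 of all 11549 tested genes lower. The interaction called none of the 25, so these counts do not show that the tissue difference changed with MSC. The most abundant were Csf3r, the receptor gene for granulocyte colony-stimulating factor (-2.51, SE 0.45, limma adjusted p = 0.00132), Ccl6, a chemokine gene (-1.95, SE 0.38, limma adjusted p = 0.00216), and Cxcr2, the receptor gene for neutrophil chemokines (-2.46, SE 0.54, limma adjusted p = 0.00433). Csf3r and Cxcr2 are also among the 5 neutrophil markers. The 4 not called, named after their values were seen, were Trem1 (0.12), Clec4e (-0.07), Itgam (-0.53) and Il1r2 (-1.08). None of the 25 was called between mice with and without MSC, in heart or in blood.

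A list of neutrophil precursor genes, early and later steps together, had 13 in the table, of which 9 passed the filter. In heart 5 were called lower, 2 higher and 2 were not called. Among all tested genes 18.1% were called lower and 25.3% higher. Lcn2, a secondary granule gene, had -3.13 (SE 0.54, limma adjusted p = 0.00100), and Ngp, the gene of neutrophilic granule protein, -4.40 (SE 1.05, limma adjusted p = 0.00642). Chil3, which macrophages also express, had 0.35 (SE 0.56, limma adjusted p = 0.628). The 2 called higher, named after their values were seen, were Mki67 and Top2a, markers of dividing cells. Prtn3, a primary granule protease gene named after its values were seen, had -1.67 (SE 0.45, limma adjusted p = 0.0113). Elane and Mpo, genes of the first granule proteases and oxidases, had no more than 8.65 normalized counts in any library.

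For each gene the closest profiles over the 10 libraries were found among the 11548 other tested genes, as a description over libraries that share their depth and cell mixture. Retnlg was most like Lcn2 (root mean square difference 0.79) and the stefin gene Cstdc4 (0.88). Wfdc21 was most like Hba-a1, an alpha globin gene of red cells (0.64), and Stfa1 (0.87), so that its nearest profile was an erythroid one and Blood 22 was the highest library for both. Stfa2l1 was most like Fpr1, a receptor gene for formyl peptides (0.37), and Trem5 (0.43), Wfdc17 like Gda (0.31) and Gvin3 (0.32), and Lrg1 like Steap4 (0.22) and Ripor2 (0.24). Asprv1 was most like Cd33 (0.23) and Fpr2 (0.25), Mxd1 like Cdk2ap2 (0.17) and its overlapping Gm44292 (0.20), and Slpi like Itgal (0.20) and Mcemp1 (0.23). The nearest profiles of Retnlg and Wfdc21 were farther away than those of the other 6 genes.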

How the data were processed

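The authors selected Ly6G+ cells with microbeads, depleted ribosomal RNA, sequenced stranded read pairs, trimmed them with Trimmomatic, removed PCR duplicates with Picard and mapped the rest to GRCm39 with STAR. Reads were counted by featureCounts for each gene with regard to strand, without those of mitochondrial genes, and divided by DESeq2 size factors. The deposited values are therefore signal values, that is normalized counts per gene. A second deposited table, named for raw counts, holds the same 281850 values. In each library 100% of values came out as a whole number of reads, within 0.02 read, and these reads were recovered. Recovered reads ran from 148594 to 8602711 per library. Floors and exact intervals cover counting error only.

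The test was limma (3.58.1) with a trend on log2(normalized count + 2), with 1 mean per group over all 10 libraries, on 11549 genes with a mean of at least 10, and Benjamini-Hochberg adjustment over all of them. Fold changes on this scale understate low genes. A call needed an adjusted p under 0.05 and a log2 fold change of at least 0.5 in size, the interaction the adjusted p alone. edgeR (4.0.16, quasi-likelihood, TMM) and DESeq2 (1.42.0) were run on recovered reads as alternatives, with other pseudocounts (1 and 8), filters (none and 50), scalings and libraries left out. The tools were tested on simulated reads. R 4.3.3, Python 3.11.15, pandas 2.3.3, scipy 1.17.1 and matplotlib 3.10.9 were used.

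Gene positions and exon lengths came from GENCODE for GRCm39, which held 27906 of the 28185 genes and may differ from the annotation the authors counted with. Promoters came from RefSeq on GRCm38.p6 and were matched by symbol for 7 of the 8 genes, not Wfdc21. The 8 genes, the lists and the tests were chosen with earlier results of these data known. Named genes are the 8, the 3 most abundant genes of each further list, every tested gene of the stefin, resistin and WAP families, and the 2 genes most like each of the 8, except where the text says that a name was chosen later. Listed genes missing from the table were not analysed here.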

Additional observations from a re-analysis of the deposited data

How the results depend on the processing

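In heart against blood all 8 genes kept their direction under every alternative run, and each called gene stayed called under the other pseudocounts, filters, scalings and tools. With 1 library left out, 6 to 8 of the 8 were called in heart against blood, 6 to 8 in MI against Blood, and 2 to 5 in MI + MSC against Blood + MSC, where 4 were called with all libraries. Where a blood library is left out its group is a single library, assumed to vary like the other groups. Leaving out MI 13 and Blood 21 together made Blood 22 the only Blood library. Asprv1 and Mxd1 then lost the call in MI against Blood by limma and by edgeR, the edgeR run having been added after seeing the data. No alternative called any of the 8 between mice with and without MSC or in the interaction. Some signs of such differences turned. In the heart, Wfdc17 went to -0.34 by limma and -0.36 by edgeR without MI 13 and Blood 21, Stfa2l1 to -0.46 and -0.0453 in the same runs and to -0.0875 with library-size scaling, and Slpi to 0.00203 with TMM. In blood, Lrg1 went to 0.26 with library-size scaling, 0.00766 with TMM and 0.0303 with edgeR. In the interaction, Wfdc21 went to 0.13 with a pseudocount of 8, and without MI 13 and Blood 21 to 0.83 by limma and 0.0377 by edgeR. The cause was not tested.

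With 1 library left out, the values in the heart ran from -0.16 to 1.23 for Asprv1, -0.79 to 0.13 for Lrg1, -0.29 to 0.38 for Slpi, -0.67 to 0.92 for Stfa2l1 and -0.34 to 0.95 for Wfdc17. In blood they ran from -0.29 to 0.22 for Lrg1, -1.44 to 0.25 for Slpi and -2.43 to 0.60 for Wfdc21. In the interaction they ran from -0.75 to 0.17 for Lrg1, -0.29 to 1.39 for Slpi and -1.98 to 1.04 for Wfdc21. Wfdc21 in MI + MSC against MI has no value with these groups fitted alone, since its mean was then under the filter. Over all genes, leaving out Blood 22, so that Blood is the shallow, platelet-rich Blood 21 alone and the spread comes from the other groups, gave 1107 genes higher and 397 lower in Blood + MSC against Blood, none of the 8 among them, where limma called 0 with all libraries, and 247 higher and 839 lower in the interaction. The counts over all genes in heart against blood were 931 higher and 1664 lower with a minimum mean of 50, and 4798 and 2019 with no filter. No paired analysis was possible because the groups share no replicate number. Depth limits MI 13 and Blood 21 most, where 3 reads equal 25.2 and 21.2 normalized counts.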
